A study of Danio rerio with 11 samples.

Results

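The libraries described here were made from tails of zebrafish embryos of line 23095, which carries a mutation in lsd1, and comprise 3 mutant and 2 wildtype libraries of the 11 libraries in the series. The libraries were taken by the genotype label alone (23095 mutant or 23095 wildtype), and no measured value decided which were taken. The comparison, the genes and the lists were chosen with earlier results of these data known. The other 6 libraries are 3 mutants and 3 wildtypes of a second lsd1 line, 36433, which served for the shared estimate of the spread and as further wildtypes. Each library held the RNA of 5 pooled tails, cut behind the yolk sac at 24 hours post fertilisation. The labels name no treatment for any group, and the lesion that each line carries was not given in the sources used here. Mutant replicates carried the numbers 1, 2 and 4, and wildtype replicates the numbers 1 and 2. Nothing in the labels says that the pools came from separate clutches, so the p-values below measure only the spread between pools. That spread was estimated over the 11 libraries of both lines, not over the pools of line 23095 alone. The groups that share this estimate differed in the distances between their own libraries, given below.

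Lsd1, encoded by kdm1a, is a demethylase that removes methyl groups from lysine 4 of histone H3 and acts mostly as a corepressor of transcription. It is brought to target genes by DNA-binding repressors that carry a short SNAG domain, among them the Gfi1 and Snail families, and it works with the CoREST scaffold and histone deacetylases. In vertebrate embryos, Gfi1 proteins and Lsd1 are known for silencing the endothelial programme when blood cells form from vessel-lining cells, and for the maturation of blood cells.

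Total counts were 15799984, 8204459 and 16535501 in mutant replicates 1, 2 and 4 of line 23095. They were 15329063 and 17195875 in the 23095 wildtypes, and 12199605 to 16649352 in line 36433. Mutant replicate 2 was the shallowest library of the series. The 10 genes with most counts took 13.3% to 14.3% of the counts in the mutants, against 19.2% and 17.4% in the wildtypes. The first principal component of the 500 most variable genes (44.6% of their variance) separated the lines, with the 23095 mutants between -29.76 and -28.12, the 23095 wildtypes at -15.05 and -16.88, and the 36433 wildtypes between 19.76 and 22.67. On the second (20.1%), the mutants lay at 4.47, 6.87 and 23.29 and the wildtypes at -29.89 and -19.72, so on this axis replicate 4 was the mutant farthest from the wildtypes. On this second axis the wildtypes of line 36433 lay between -13.36 and 1.31. Over all tested genes, the root mean square difference of log2 levels from wildtype replicates 1 and 2 was 0.819 and 0.804 for mutant replicate 2. It was 0.854 and 0.745 for mutant replicate 4, and 0.716 and 0.606 for mutant replicate 1. Between mutants, it was 0.76 for replicates 1 and 2, 0.59 for 1 and 4, and 0.763 for 2 and 4. The 23095 wildtypes differed by 0.524. In line 36433 the difference was 0.474 to 0.499 between mutants and 0.533 to 0.663 between wildtypes. Distances between 23095 mutants thus overlapped with those from mutants to wildtypes. The posterior homeobox gene hoxa13b had 6.98, 10.9 and 10.33 CPM (counts scaled to the depth of the library with TMM factors) in the mutants and 6.06 and 6.31 CPM in wildtype tails. Of 20 matched genes of head, heart and eye, 13 passed the filter on low counts, and these summed to 22.7 to 32.5 CPM in mutant tails and 27 and 30.3 CPM in wildtype tails. The series holds tails alone, so these levels cannot check the labelled tissue.

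The transcript of the targeted gene itself was kept in line 23095. KDM1A (kdm1a, ENSDARG00000060679) had 130, 170 and 130 CPM in mutant tails and 124 and 142 CPM in wildtype tails. The groups overlapped, and the log2 fold change of 0.11 (standard error 0.16) was not called (edgeR adjusted p = 0.781). The level of this transcript therefore does not separate the labelled mutants from their wildtypes, and no deposited value here checks the genotype of this line. Of 24 genes for Lsd1 partners in the CoREST, NuRD and related complexes, none was called by edgeR, and 1 was called by DESeq2. Among all genes, edgeR called 1.63%, so in a list of this size a count of 0 is near that share. At an unadjusted p under 0.05, 5 partners were higher and 0 lower, where 7.92% and 8.91% of all genes were. Log2 fold changes were positive in 23 partners and negative in 1, with a median of 0.32, against 0.02 over all genes. The partner with the smallest p was RCOR2, a CoREST scaffold gene, with 49.3, 55 and 57 CPM in mutant tails and 30.7 and 36.6 CPM in wildtype tails (log2 fold change 0.68, edgeR adjusted p = 0.0604). Without mutant replicate 2, the median of the partners was 0.16 and the log2 fold change of KDM1A was -0.03.

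The genes called higher in the mutants included GFI1, snai3, snai1b, LMO2 and BMP3, and those called lower included EPX, XIRP2, pnp4a and c4b. Of 20886 genes tested, 145 were called higher and 195 lower in the mutants at an adjusted p under 0.05 (quasi-likelihood test of edgeR, Benjamini-Hochberg adjustment over all genes), which is 1.63% of all genes (0.694% higher and 0.934% lower). An unadjusted p under 0.05 was reached by 16.8% of genes (7.92% higher and 8.91% lower). The counts of called members in the lists below are to be read beside these shares of all genes. Because the lists were chosen with earlier results of these data known, the counts describe the lists and do not test them. Among the 141 higher and 186 lower calls with more than 3 counts in each group, log2 fold changes ran between 0.65 and 5.56 for the rises and between -5.36 and -0.69 for the falls. The median was 1.19 over all 145 rises and -1.78 over all 195 falls.

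How many genes were called depended on single libraries. With 1 library of the line left out, edgeR called 466 genes (without mutant replicate 1), 287 (mutant replicate 2), 24 (mutant replicate 4), 4 (wildtype replicate 1) and 89 (wildtype replicate 2). The 4 genes called in each of these 5 fits were GFI1, snai3 and snai1b, all higher, and EPX, lower. Fitted alone, the 5 libraries of the line gave 6 calls (4 higher and 2 lower), and leaving out 1 library of line 36433 gave 101 to 619. All of the 340 genes that could be tested in those 5 fits (339 or 340) kept their sign there.

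**Figure D1:**
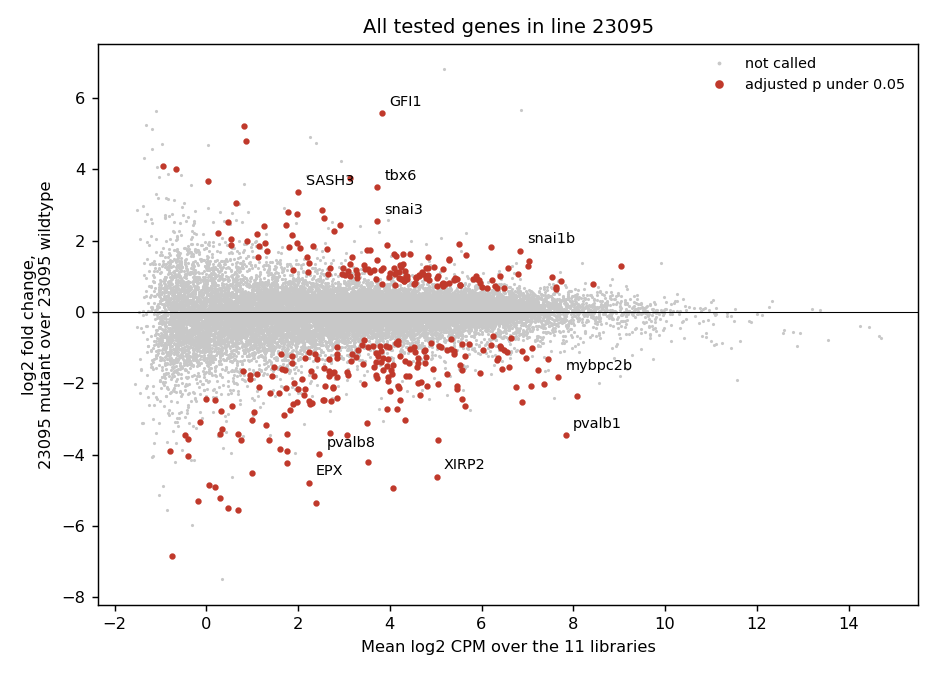
Log2 fold change of 23095 mutants over 23095 wildtypes (vertical axis) against the mean log2 CPM over the 11 libraries (horizontal axis) for the 20886 tested genes. Red points are the 340 called genes, with GFI1 at 5.56 and EPX at -4.78 among those labelled.

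The genes that stood out most firmly were SNAG-domain repressors themselves. Of 12 tested genes of this kind, 7 rose and none fell, where 0.694% of all genes were called higher. The median log2 fold change was 1.38. GFI1 (ENSDARG00000044457), which encodes a DNA-binding repressor known from blood cell maturation, had 38.4, 19.3 and 35.7 CPM in mutant tails and 0.568 and 0.746 CPM in wildtype tails. Every mutant was far above both wildtypes, a 47.3-fold rise (log2 fold change 5.56, standard error 0.49, edgeR adjusted p = 0.000451). The paralog gfi1aa had 13.5, 6.61 and 17.3 CPM in mutant tails and 1.39 and 2.71 CPM in wildtype tails (log2 fold change 2.63, standard error 0.47, edgeR adjusted p = 0.0261). Its lowest mutant, replicate 2, was also the lowest mutant for GFI1.

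The Snail family, repressors known for their part in epithelial to mesenchymal transition and neural crest migration, rose as a whole among its measured members. Transcripts of snai3 (ENSDARG00000031243) were at 27.3, 22.5 and 33 CPM in mutant tails and at 4.8 and 4.75 CPM in wildtype tails, a 5.8-fold rise (edgeR adjusted p = 0.000451). Those of snai1b (ENSDARG00000046019) were at 171, 204 and 192 CPM in mutant tails and at 53.4 and 61.4 CPM in wildtype tails, a 3.29-fold rise (edgeR adjusted p = 0.000451). The spread among mutants was small beside the gap to the wildtypes for both genes. Levels of snai1a were 35.5, 36.4 and 53.9 CPM in mutant tails and 12 and 17.1 CPM in wildtype tails (log2 fold change 1.53, edgeR adjusted p = 0.016), and those of snai2 were 135, 101 and 143 CPM against 57.8 and 63.9 CPM (log2 fold change 1.06, edgeR adjusted p = 0.0322). The groups did not overlap for either gene. The seventh rise was ovol1a, a zinc-finger repressor of epithelial differentiation, with 25.2, 24.2 and 31.6 CPM in mutant tails and 13.4 and 9.56 CPM in wildtype tails (log2 fold change 1.23, edgeR adjusted p = 0.0349). Its mutant libraries lay within the range of the 36433 wildtypes, which reached 38.3 CPM, whereas for the other 6 rises the mutants were above all 5 wildtypes.

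Members known for neural and endocrine expression did not pass the test. SCRT1, SCRT2 and both INSM1 copies had log2 fold changes between -0.45 and 0.33. Leaving out mutant replicates 1, 2 or 4 left 7, 7 or 4 rises in this list, and leaving out wildtype replicates 1 or 2 left 3 or 5.

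**Figure D2:**
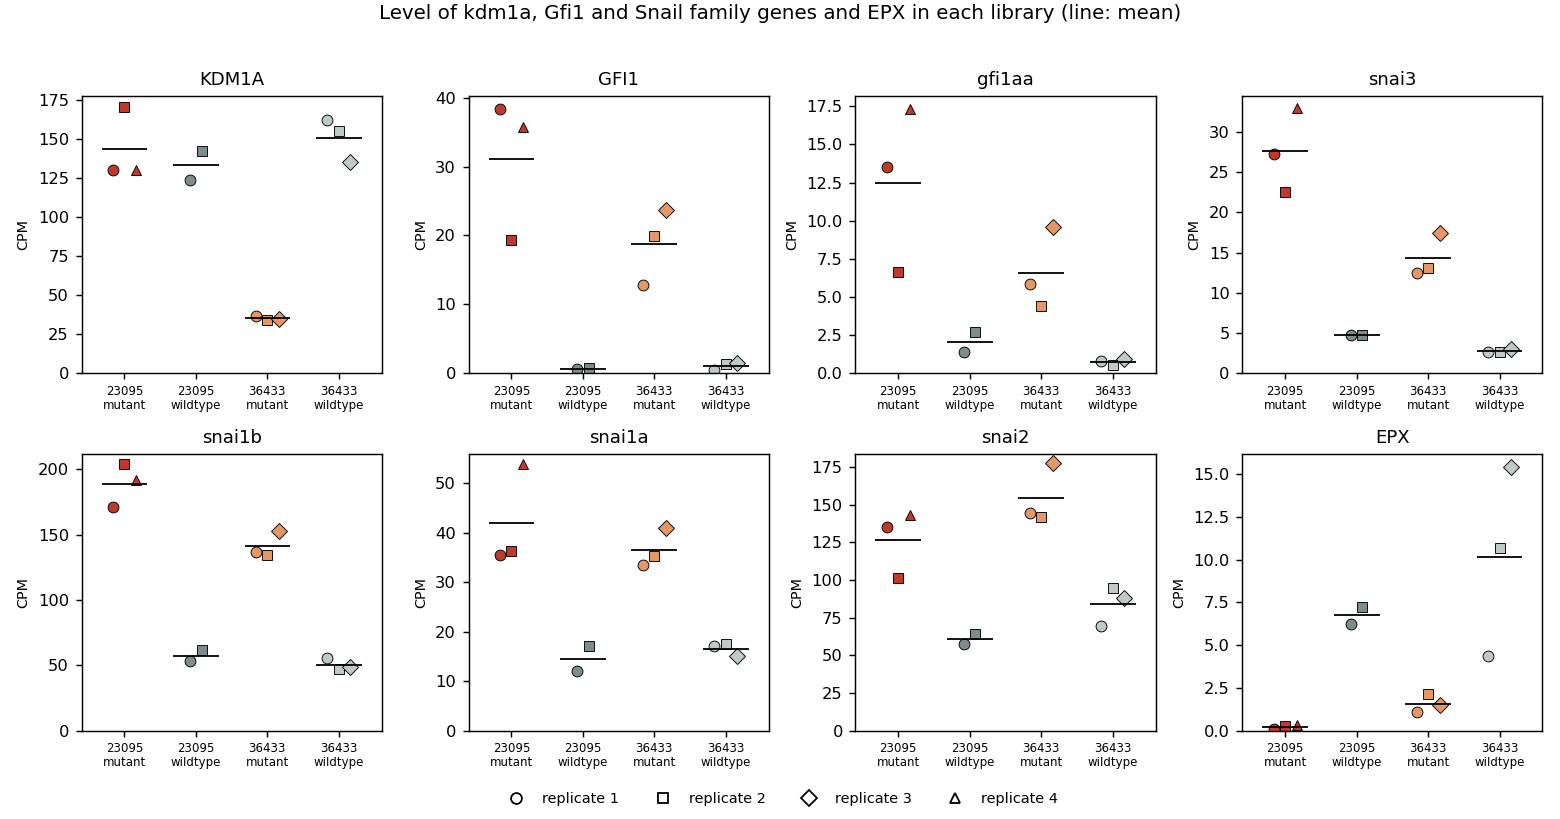
CPM (vertical axis, starting at 0) of KDM1A, SNAG-domain repressor genes and EPX in each library, by line and genotype (horizontal axis), with the group mean as a line and the replicate number as the symbol. In line 23095, KDM1A overlaps between mutants and wildtypes, while GFI1, gfi1aa and the snai genes are higher in every mutant and EPX is lower.

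Called regulators of blood stem and progenitor cells were all higher in the mutants. Of 16 tested genes 6 rose and none fell, 11 were higher at an unadjusted p under 0.05 (7.92% of all genes were), and the median log2 fold change was 1.15. Besides GFI1 and gfi1aa, described above, the rises were those of LMO2, MYB, FLI1 and etsrp. LMO2, an adaptor of transcription factor complexes in early blood and vessels, had 29.8, 29.4 and 44 CPM in mutant tails and 8.14 and 14.2 CPM in wildtype tails (log2 fold change 1.63, standard error 0.27, edgeR adjusted p = 0.0232). MYB, needed for definitive blood stem cells, had 29.1, 23.8 and 38.5 CPM in mutant tails and 12 and 18 CPM in wildtype tails (log2 fold change 1.03, edgeR adjusted p = 0.0438). In all 6 genes the mutants were also above the 3 wildtypes of line 36433. Named after their values were seen, RUNX1, the master regulator of blood stem cell emergence, had 2.56, 2.33 and 1.75 CPM in mutant tails and 0.568 and 0.678 CPM in wildtype tails (edgeR adjusted p = 0.0536), and GFI1B had 10.26, 13.6 and 13 CPM against 1.01 and 5.15 CPM (edgeR adjusted p = 0.0831). Neither passed the threshold, although their groups did not overlap. The list held 5, 5 or 1 called genes without mutant replicates 1, 2 or 4, and 1 or 3 without wildtype replicates 1 or 2.

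Called vessel genes included both rises and falls. Of 41 tested endothelial genes 6 rose and 2 fell, and the median log2 fold change was 0.44. The mutants were above all 5 wildtypes in 21 of the 41, where 6.27% of all genes behaved so. The receptor kinase gene tek, known for vessel stability, had 24.1, 43.6 and 28.9 CPM in mutant tails and 11 and 10.8 CPM in wildtype tails (log2 fold change 1.56, edgeR adjusted p = 0.036). The clotting factor gene vwf, made in vessel walls, had 10.6, 5.05 and 15.8 CPM in mutant tails and 1.32 and 1.63 CPM in wildtype tails (log2 fold change 2.85, edgeR adjusted p = 0.0232). Every mutant was above every wildtype in both.

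Among the transcription factors of vessels, FLI1 had 49.5, 55.2 and 62.6 CPM in mutant tails and 31.7 and 32 CPM in wildtype tails (log2 fold change 0.81, edgeR adjusted p = 0.0425). The gene etsrp, which in zebrafish starts both vessel and myeloid development, had 32.1, 33.8 and 55 CPM in mutant tails and 18.5 and 21.4 CPM in wildtype tails (log2 fold change 1.02, edgeR adjusted p = 0.0477). SOX7 rose by 1.13 and the apelin receptor gene aplnra by 0.82 on the log2 scale (edgeR adjusted p = 0.0375 and 0.0378). FLI1 and etsrp also stand in the blood list, so the 2 counts are not independent. The falls were those of plvapb, a component of the diaphragms of fenestrated endothelium, and of the adhesion molecule gene pecam1a. Levels of plvapb were 13.7, 20.9 and 13.7 CPM in mutant tails and 35.3 and 27.9 CPM in wildtype tails (log2 fold change -0.99, edgeR adjusted p = 0.0487), and those of pecam1a were 4.35, 3.5 and 1.81 CPM against 11.3 and 8.81 CPM (log2 fold change -1.66, edgeR adjusted p = 0.0375). No gene of the list was called without mutant replicate 4, wildtype replicate 1 or wildtype replicate 2.

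Among genes of differentiated white cells, most of those called were lower. Of 16 tested macrophage genes 4 fell and none rose, 9 were lower at an unadjusted p under 0.05, and the median log2 fold change was -2.0. In 10 of the 16 the mutants were below all 5 wildtypes, where 5.55% of all genes were. Summed over the 16 genes, the libraries reached 18.2, 19.2 and 15.4 CPM in mutant tails and 61.2 and 47.8 CPM in wildtype tails. In RNA from whole tails, fewer cells of a type and less RNA per cell cannot be told apart.

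Several macrophage transcripts were close to the detection limit in the mutants. Only 2 reads over the 3 mutant libraries came from MPEG1 (ENSDARG00000055290), a pore-forming protein that marks macrophages, against 39 and 24 in the wildtypes (edgeR adjusted p = 0.0409). The myeloid factor gene spi1a had 2 mutant reads against 20 and 8 in the wildtypes (edgeR adjusted p = 0.0438). Of the microfibril-associated MFAP4 genes, ENSDARG00000088745 had 2 reads in the mutants and 38 and 39 in the wildtypes (edgeR adjusted p = 0.016). The copy ENSDARG00000090783 had 0.775, 0.130 and 0.282 CPM in mutant tails and 6.69 and 4 CPM in wildtype tails (log2 fold change -3.59, edgeR adjusted p = 0.0232). The symbol MFAP4 belongs to 5 identifiers and MPEG1 to 2. Whether reads were shared between copies was not tested, which leaves the single values uncertain. Without mutant replicates 1, 2 or 4 the list held 4, 2 or 0 called genes, and without wildtype replicates 1 or 2 it held 0 or 2.

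Of 14 tested genes of white cells in general, 3 fell and 1 rose, with a median log2 fold change of -1.0. LCP1, an actin bundler of white cells, had 1.67, 3.5 and 2.43 CPM in mutant tails and 11.3 and 9.29 CPM in wildtype tails (log2 fold change -2.08, standard error 0.37, edgeR adjusted p = 0.0256). The phosphatase gene ptprc (CD45) had 0.0596, 0.130 and 0.395 CPM in mutant tails and 1.58 and 2.1 CPM in wildtype tails (edgeR adjusted p = 0.0421). The third fall was fcer1gl, a receptor chain gene with 4 reads over the mutants and 37 over the wildtypes (edgeR adjusted p = 0.0331). The rise was parvg, a focal adhesion gene of blood cells, with 6.5, 6.09 and 5.81 CPM in mutant tails and 2.46 and 2.31 CPM in wildtype tails (log2 fold change 1.36, edgeR adjusted p = 0.0375). No call of this list was made without mutant replicate 4 or either wildtype.

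Among 17 neutrophil genes 1 fell and none rose. At an unadjusted p under 0.05, 1 was higher and 5 were lower, where 7.92% and 8.91% of all genes were. The mutants were below both wildtypes of the line in 10 of the 17 and above both in 2, where 17.4% and 16.4% of all genes behaved so. EPX (ENSDARG00000019521), the granulocyte peroxidase that zebrafish work calls mpx, had 0.119, 0.259 and 0.339 CPM in mutant tails and 6.25 and 7.25 CPM in wildtype tails. That was a 27.5-fold fall (log2 fold change -4.78, standard error 0.58, edgeR adjusted p = 0.00694), with 10 reads over the mutants and 206 over the wildtypes. The neutrophil gene lyz, not called by edgeR, had 2 reads over the mutants and 43 over the wildtypes. CSF3R, the receptor for the granulocyte growth factor, had 10.5, 6.87 and 11.5 CPM in mutant tails and 4.67 and 2.85 CPM in wildtype tails (log2 fold change 1.36, edgeR adjusted p = 0.0723). Its groups did not overlap, and it was the neutrophil gene with the highest log2 fold change of the list, whose median was -0.38. No erythroid gene of 35 was called by edgeR (3 higher and 4 lower at an unadjusted p under 0.05, and 2 called by DESeq2). The embryonic globin copy HBE1 (ENSDARG00000045143), 1 of 6 identifiers with that symbol, had 39.6, 47.8 and 49.4 CPM in mutant tails and 2.65 and 19.3 CPM in wildtype tails (edgeR adjusted p = 0.0706). The erythroid list moved most between the wildtype libraries, with a median of -1.23 in replicate 1 and 0.29 in replicate 2 relative to the mean of the 5 wildtypes, and without wildtype replicate 2 its median log2 fold change was 1.14, against -0.05 with all libraries, and 3 of its genes were called higher.

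Called pigment cell genes were all lower in the mutants. Of 17 tested melanophore genes, those of the black pigment cell, 4 fell and none rose, 14 were lower at an unadjusted p under 0.05 (8.91% of all genes were), and the median log2 fold change was -1.70. TYRP1 (ENSDARG00000056151), a melanin synthesis enzyme, had 8.05, 4.92 and 1.02 CPM in mutant tails and 51.5 and 24.8 CPM in wildtype tails (log2 fold change -3.04, standard error 0.62, edgeR adjusted p = 0.0369). Its second copy ENSDARG00000029204 had 4.29, 3.89 and 2.43 CPM in mutant tails and 14.4 and 8.34 CPM in wildtype tails (log2 fold change -1.7, edgeR adjusted p = 0.0375). Replicate 4 was the lowest mutant for both copies. The 23095 wildtypes exceeded the 36433 wildtypes by a median of 0.71 on the log2 scale over the melanophore list, with no member called in that comparison.

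Levels of pmela, the fibril protein of the melanosome, were 19.6, 13.1 and 4.63 CPM in mutant tails and 56 and 45.4 CPM in wildtype tails (log2 fold change -2.03, edgeR adjusted p = 0.043). The melanosome ion exchanger gene SLC24A5 fell by 2.9 on the log2 scale (edgeR adjusted p = 0.0341), with mutant values up to 1.85 CPM, against 1.48 CPM in the lowest 36433 wildtype. Relative to the mean of the 5 wildtypes, the median of the list was -0.45, -1.05 and -1.97 in the mutants and 0.58 and -0.04 in the wildtypes. The range was wider in the mutants, but it covers 3 mutants and only 2 wildtypes, so the spreads cannot be compared. The list held 9, 0 or 0 called genes without mutant replicates 1, 2 or 4, and 0 without either wildtype.

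Genes of the silvery iridophores and yellow xanthophores showed the same direction in 4 called members of 27, all lower, with a median of -0.56. Over all genes, 0.934% were called lower. At an unadjusted p under 0.05, 15 of the 27 were lower and 0 higher. The purine enzyme gene pnp4a, a marker of iridophores, had 1.85, 0.777 and 0.903 CPM in mutant tails and 8.21 and 6.24 CPM in wildtype tails (log2 fold change -2.55, edgeR adjusted p = 0.0169). Pteridine enzyme genes of xanthophores were gch2, with 85.3, 58 and 27.3 CPM in mutant tails and 274 and 208 CPM in wildtype tails (log2 fold change -2.08, edgeR adjusted p = 0.043), and PTS, which fell by 1.82 (edgeR adjusted p = 0.0322). XDH, a purine oxidase, fell by 2.59 (edgeR adjusted p = 0.0256). For pnp4a and XDH the mutants were below all 5 wildtypes, but for gch2 and PTS they overlapped with the 36433 wildtypes. Of 20 early neural crest genes, 3 rose (snai1b, snai2 and FOXD3) and none was called lower, with 6 higher and 3 lower at an unadjusted p under 0.05. FOXD3, a crest specifier, had 67.8, 86.5 and 93.8 CPM in mutant tails and 37 and 46 CPM in wildtype tails (log2 fold change 0.99, edgeR adjusted p = 0.0471), although the median of the list was 0.11. Without mutant replicate 4, and likewise without wildtype replicate 1, the iridophore and xanthophore list held no called gene and the crest list held 1.

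Skin glands, ionocytes and the yolk layer also gave falls. In the mucous and gland list, 2 of 10 tested genes fell. The gel-forming mucin gene muc5.1 had 0.775, 3.5 and 0.452 CPM in mutant tails and 16.9 and 11.7 CPM in wildtype tails (log2 fold change -3.45, standard error 0.6, edgeR adjusted p = 0.0256). The parvalbumin gene pvalb8 had 0.417, 0.518 and 0.339 CPM in mutant tails and 6.38 and 6.71 CPM in wildtype tails (log2 fold change -3.98, standard error 0.63, edgeR adjusted p = 0.0206). Both were below all 5 wildtypes. AGR2, a protein disulfide isomerase that mucin-secreting cells need, had 8.11, 11.7 and 12 CPM in mutant tails and 30.2 and 24.3 CPM in wildtype tails (log2 fold change -1.37, edgeR adjusted p = 0.0789). Of 35 ionocyte genes 3 fell, namely the carbonic anhydrase gene ca2, the adhesion gene ceacam1 and the sodium pump subunit gene ATP1B1, by 0.91, 1.99 and 1.01 on the log2 scale (edgeR adjusted p = 0.0375, 0.0461 and 0.0487). None rose, and the median was -0.62. At an unadjusted p under 0.05, 17 ionocyte genes were lower and 0 higher. Over all genes, 0.934% were called lower and 8.91% were lower at an unadjusted p under 0.05.

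In the list of the yolk layer and liver, 6 of 32 tested genes fell and 1 rose, with a median log2 fold change of -0.75. RBP4, the plasma carrier of retinol, had 63.6, 64.5 and 68.9 CPM in mutant tails and 202 and 123 CPM in wildtype tails (log2 fold change -1.31, edgeR adjusted p = 0.0425). The lipoprotein genes apoc2, apobb.2 and apoa4b.3 fell by 1.62, 1.62 and 1.64 on the log2 scale (edgeR adjusted p = 0.043, 0.0461 and 0.0471), and the mutants were below both wildtypes of the line in each. HNF4A, a nuclear receptor of liver and gut, fell by 1.3 (edgeR adjusted p = 0.0471), and itih3a.1, a plasma matrix protein gene, by 2.13 (edgeR adjusted p = 0.0322). The rise was that of ctsll, a cathepsin gene, with 43, 41.7 and 72.5 CPM in mutant tails and 16.5 and 18.5 CPM in wildtype tails (log2 fold change 1.59, edgeR adjusted p = 0.0322), where the 36433 wildtypes had 45.5 to 86 CPM. Summed over the list, the libraries reached 8740, 15300 and 17300 CPM in mutant tails and 28400 and 17200 CPM in wildtype tails, so the list sums overlapped between the groups. The tails were cut behind the yolk sac, and the part of the cut in these values was not tested. Without wildtype replicate 2 the median of the yolk list was -1.13. Without wildtype replicate 1 it was -0.42 and no gene of the gland, ionocyte or yolk lists was called, nor was any without mutant replicate 4, where the ionocyte median was -0.41.

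Called genes of the muscle lists (contractile apparatus, excitation and energy supply) were all lower than in the wildtypes of the line. Of 107 distinct muscle genes tested in 2 lists, 13 fell and none rose, where 0.934% of all genes were called lower. The 13 include pvalb8, which also stands in the gland list. Of 55 sarcomere genes 4 fell (median -0.67), and of 52 genes of excitation, calcium handling and energy supply 9 fell (median -0.68). The mutants were below both wildtypes of their line in 70 of the 107 genes, but below all 5 wildtypes in only 9, where 17.4% and 5.55% of all genes behaved so. The 23095 wildtypes exceeded the 36433 wildtypes by a median of 0.73 and 0.72 on the log2 scale in the 2 lists, with no member called in that comparison. In line 36433, the mutants differed from their wildtypes by medians of 0.04 and 0.06.

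The thick-filament gene mybpc2b, of fast muscle, had 152, 137 and 54.8 CPM in 23095 mutant tails and 454 and 366 CPM in 23095 wildtype tails (log2 fold change -1.84, standard error 0.36, edgeR adjusted p = 0.0331). The 36433 wildtypes had 204, 125 and 224 CPM, which overlapped with the 23095 mutants. XIRP2 (ENSDARG00000091090), an actin-binding protein of muscle attachment sites whose symbol 2 identifiers share, had 6.56, 6.35 and 0.960 CPM in mutant tails and 131 and 87.2 CPM in wildtype tails (log2 fold change -4.62, edgeR adjusted p = 0.016). Its mutants were below all 5 wildtypes, the lowest of which had 9.55 CPM. The troponin gene TNNT3 (ENSDARG00000068457, also with a shared symbol) had 198, 79.5 and 43.6 CPM in mutant tails and 581 and 524 CPM in wildtype tails (edgeR adjusted p = 0.0375), and its mutant values overlapped with those of the 36433 wildtypes. TMOD4, which caps thin filaments, fell by 1.08 (edgeR adjusted p = 0.043).

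In the list of excitation and energy, the calcium buffer gene pvalb1 had 78.7, 55.7 and 8.3 CPM in mutant tails and 604 and 437 CPM in wildtype tails (log2 fold change -3.46, standard error 0.73, edgeR adjusted p = 0.0408). Mutant replicate 4 was far below the other mutants. The calcium channel gene CACNA1S, the CASQ1 copies ENSDARG00000018105 and ENSDARG00000038716 (calcium stores), and trdn (their anchor) fell by 1.75, 2.32, 2.45 and 1.07 on the log2 scale (edgeR adjusted p = 0.0233, 0.0322, 0.0497 and 0.0438). The energy genes SLC25A4, PFKM and nmrk2 fell by 3.58, 3.11 and 1.72 (edgeR adjusted p = 0.0375, 0.0322 and 0.0497), and pvalb8, counted with the glands above, completes the 9. CACNA1S, CASQ1, PFKM and, elsewhere in the text, ATP1B1, CAVIN1, MATN3, SLC38A8 and TYRP1 are symbols that 2 identifiers share. Each value is that of 1 identifier, and whether reads were shared between copies was not tested, which leaves the single values uncertain. Summed over the sarcomere list, the libraries reached 107000, 101000 and 76500 CPM in mutant tails and 162000 and 144000 CPM in wildtype tails. No muscle gene was called without wildtype replicate 1, and 2 were without mutant replicate 4.

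Myogenic regulators, which act before and during muscle differentiation, moved in both directions. Of 31 tested 2 rose and none was called lower, where 0.694% of all genes were called higher. At an unadjusted p under 0.05, 14 were higher and 5 lower, where 7.92% and 8.91% of all genes were. The median log2 fold change was 0.30. Without mutant replicate 1, 1 of the 31 was called lower. MYMK, the membrane protein that fuses myoblasts, had 131, 123 and 146 CPM in mutant tails and 48.4 and 64.6 CPM in wildtype tails (log2 fold change 1.24, standard error 0.2, edgeR adjusted p = 0.0206). The adhesion gene jam2a, needed for the same fusion in zebrafish, had 47.5, 73.7 and 73.1 CPM in mutant tails and 19.2 and 28.1 CPM in wildtype tails (log2 fold change 1.45, edgeR adjusted p = 0.0286). In both genes the mutants were above all 5 wildtypes. MYOG, the differentiation factor, had 136, 127 and 188 CPM in mutant tails and 58.6 and 99.1 CPM in wildtype tails (edgeR adjusted p = 0.0698). Neither call was made without mutant replicate 4 or wildtype replicate 1.

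Called genes of the segmentation clock and presomitic mesoderm were all higher than in the wildtypes of the line. Of 33 tested members 6 rose and none fell, where 0.694% of all genes were called higher. At an unadjusted p under 0.05, 16 were higher and 0 lower, where 7.92% and 8.91% of all genes were. The median log2 fold change was 0.64, which was 0.29 without mutant replicate 2. The clock gene her7 had 2.86, 2.59 and 6.83 CPM in mutant tails and 0.379 and 0.814 CPM in wildtype tails (log2 fold change 2.81, edgeR adjusted p = 0.0341). The T-box gene tbx6, known for patterning the presomitic mesoderm, had 6.32, 48.7 and 17.7 CPM in mutant tails and 1.58 and 2.64 CPM in wildtype tails (log2 fold change 3.49, standard error 0.76, edgeR adjusted p = 0.0433). Every mutant was above both wildtypes of the line, with replicate 2 far above the other mutants.

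A second T-box gene, tbx16, which guides cells out of the tailbud, had 15.4, 20.2 and 28.2 CPM in mutant tails and 5.68 and 5.9 CPM in wildtype tails (log2 fold change 1.88, edgeR adjusted p = 0.0322). The somite boundary gene mespaa, the adhesion gene pcdh8 and the Notch ligand gene dlc rose by 2.4, 1.82 and 0.89 on the log2 scale (edgeR adjusted p = 0.0324, 0.0375 and 0.0449). Of 57 tailbud genes 2 rose, tbx16 and the Wnt target sp5l (log2 fold change 1.23, edgeR adjusted p = 0.0331), with a median of 0.40. That was 3.51% of the tailbud list, where 0.694% of all genes were called higher. In none of the 7 genes called in these lists were the mutants above all 5 wildtypes. For tbx16, the 36433 wildtypes had 17.1, 15.5 and 9.34 CPM, and over the clock list the 23095 wildtypes were below the 36433 wildtypes by a median of 0.29. Between mutants and wildtypes of line 23095, the summed sarcomere level, given above, differed in the direction opposite to these genes. The part of either in the other was not tested. No gene of these lists was called without mutant replicate 4 or wildtype replicate 1, and the tailbud median was 0.23 without mutant replicate 2 and 0.21 without mutant replicate 4.

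**Figure D3:**
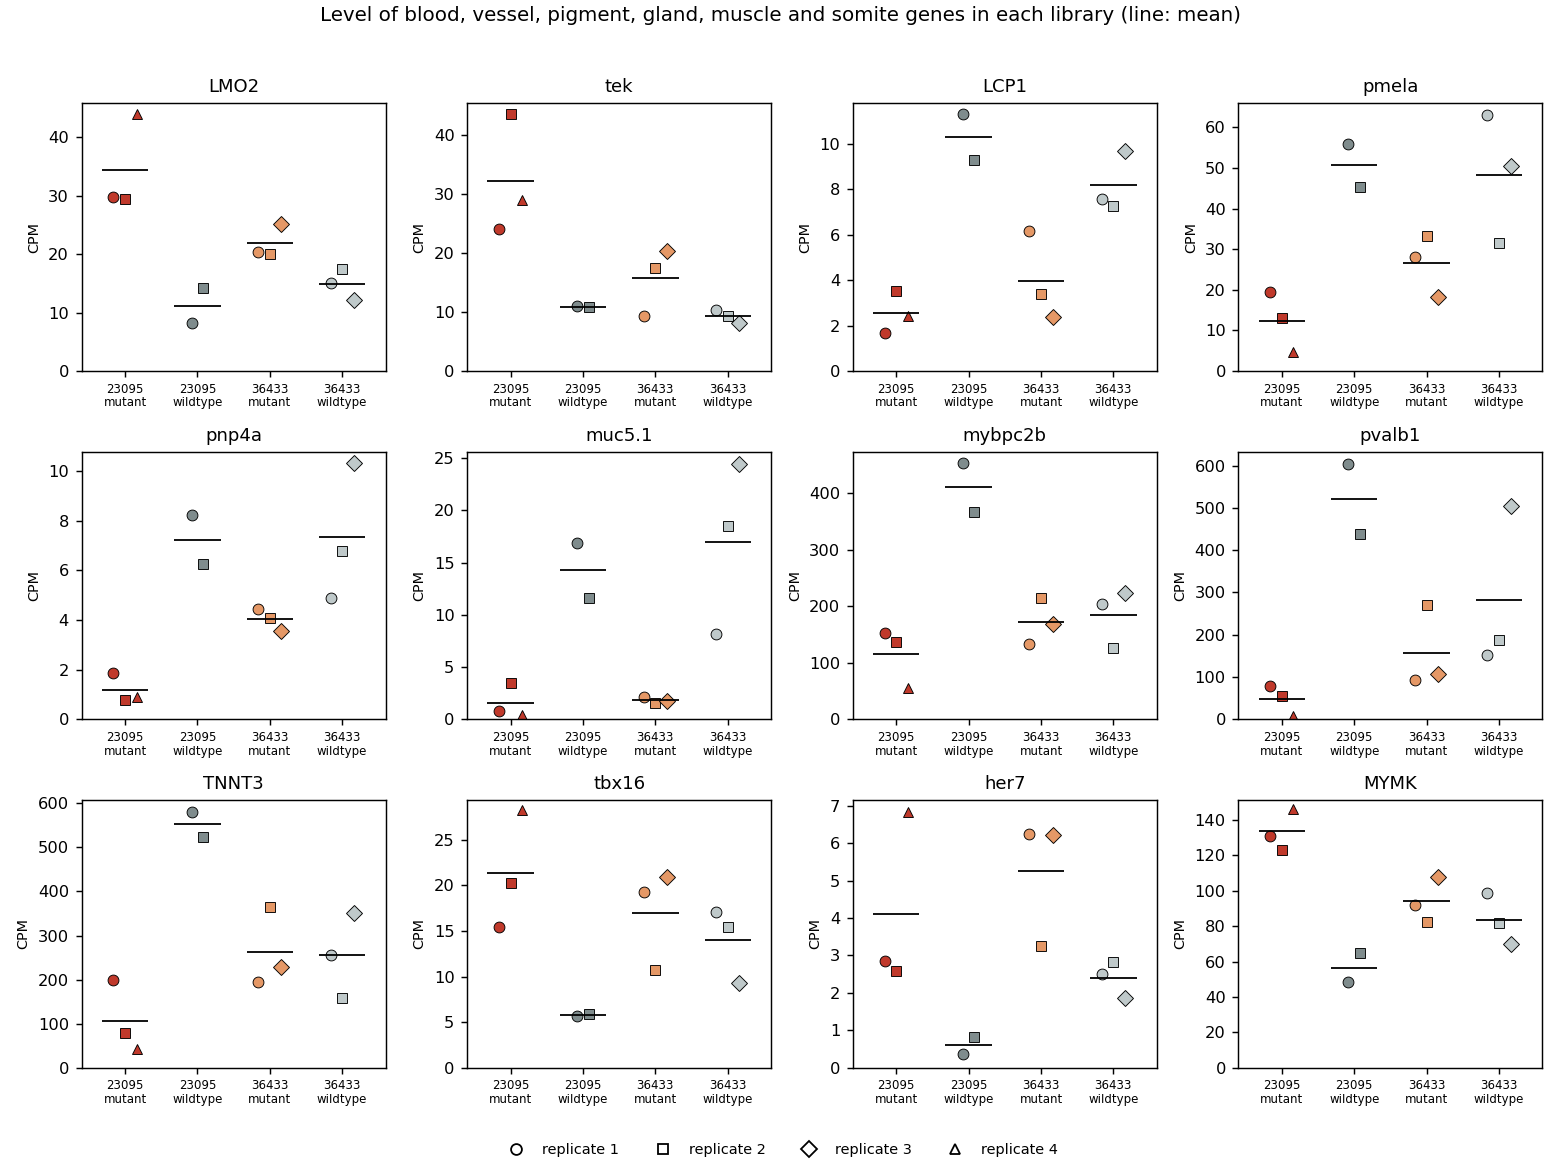
CPM (vertical axis, starting at 0) of 12 genes of blood, vessel, white cell, pigment, gland, muscle and presomitic tissue in each library by line and genotype (horizontal axis), with the group mean as a line. LMO2, tek, LCP1, pnp4a and muc5.1 lie beyond all 5 wildtypes in the 23095 mutants, whereas mybpc2b, TNNT3, tbx16 and her7 overlap with the 36433 wildtypes.

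Gene lists differed in how far their mutants lay from the 5 wildtypes of both lines. Among all tested genes, the 3 mutants lay beyond both wildtypes of their line in 33.8% and beyond all 5 wildtypes in 11.8%. In the lists of SNAG repressors, blood stem cells, endothelium, macrophages and white cells in general, 56.1% to 64.3% of members lay beyond all 5 wildtypes. The share was 53.1% for the yolk and liver list, 50% for glands, 47.1% for melanophores, 37.1% for ionocytes, 37.0% for iridophores and xanthophores, and 35.5% for myogenic regulators. It was 13.5% in the list of excitation and energy, of which 75% lay beyond both wildtypes of the line. In the lists of sarcomere, clock and tailbud genes, 47.4% to 61.8% lay beyond both wildtypes of the line and 6.06% to 7.27% beyond all 5. Of the 340 called genes, 120 of the 145 rises (82.8%) and 129 of the 195 falls (66.2%) lay beyond all 5 wildtypes. The 36433 wildtypes differ from these mutants in line as well as in genotype, and the 2 cannot be told apart in this count.

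**Figure D4:**
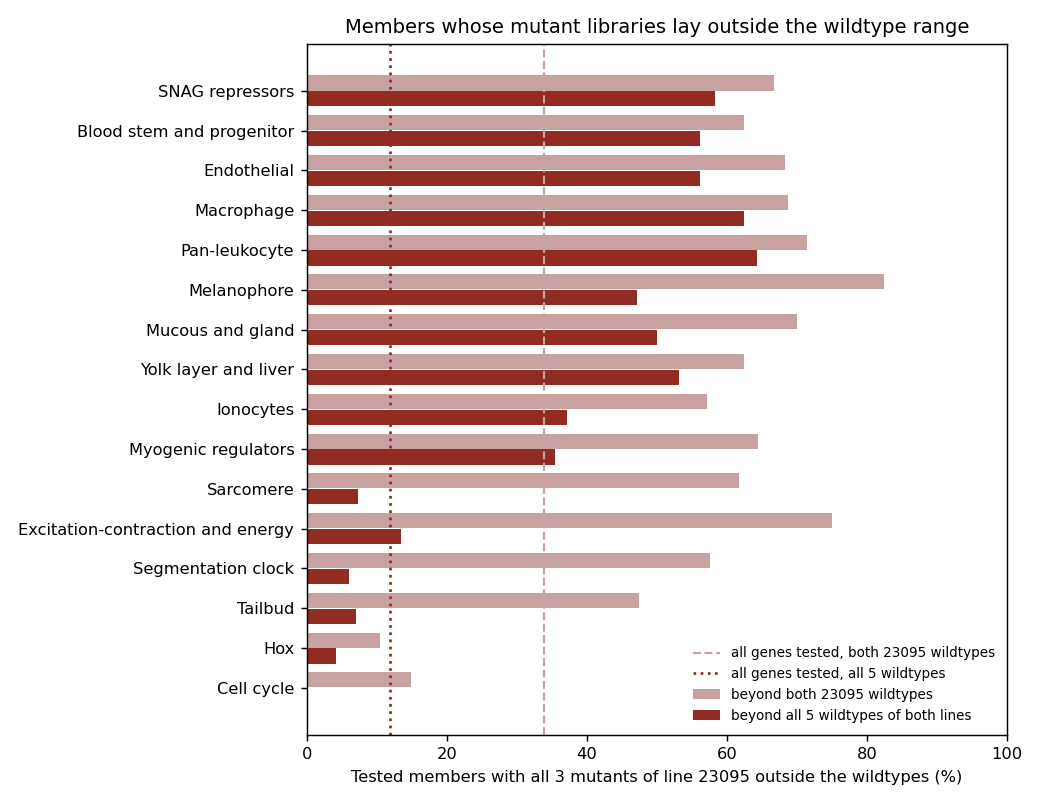
Share of tested list members (horizontal axis, percent) in which all 3 mutants of line 23095 lay above or all lay below the wildtypes, for 16 gene lists. Light bars use both 23095 wildtypes and dark bars all 5 wildtypes, with the shares over all tested genes as dashed (33.8%) and dotted (11.8%) lines.

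Further genes with the smallest p-values stood outside the lists of tissues. SASH3, an adaptor of lymphoid signalling, had 4.71, 4.79 and 9.54 CPM in mutant tails and 0.568 and 0.678 CPM in wildtype tails (log2 fold change 3.35, standard error 0.43, edgeR adjusted p = 0.00805). BMP3, a secreted ligand of the bone morphogenetic protein family, had 23.6, 23.7 and 30.5 CPM in mutant tails and 7.83 and 8.95 CPM in wildtype tails (log2 fold change 1.63, standard error 0.21, edgeR adjusted p = 0.00805). OAT, an enzyme of ornithine metabolism, had 38, 34.6 and 35.8 CPM in mutant tails and 17 and 13.7 CPM in wildtype tails (log2 fold change 1.24, edgeR adjusted p = 0.016). All 3 genes had mutants above all 5 wildtypes. The phosphatase inhibitor gene PPP1R14C, the ubiquitin ligase gene RNF145 and the leucine-rich repeat gene lingo4b rose by 1.43, 1.25 and 1.23 on the log2 scale (edgeR adjusted p = 0.0206, 0.0232 and 0.0169).

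Of the falls outside the tissue lists, the complement gene c4b had 12.3, 4.53 and 4.85 CPM in mutant tails and 45.6 and 37 CPM in wildtype tails (log2 fold change -2.48, edgeR adjusted p = 0.016). The collagen-binding integrin gene ITGA11 (ENSDARG00000036086, symbol shared by 2 identifiers) had 2.03, 2.2 and 1.24 CPM in mutant tails and 9.09 and 8.81 CPM in wildtype tails (log2 fold change -2.33, edgeR adjusted p = 0.016). IGSF10 had 2.21, 0.907 and 0.282 CPM in mutant tails and 30.8 and 12.1 CPM in wildtype tails (log2 fold change -4.21, edgeR adjusted p = 0.016). No mutant reached the lowest wildtype of either line in these 3 genes. OPN5, an opsin gene, and TBC1D24 fell by 1.88 and 1.05 on the log2 scale (edgeR adjusted p = 0.0232 each). The ankyrin gene ank3b and the receptor-modifying protein gene RAMP1 fell by 1.28 and 1.24 (edgeR adjusted p = 0.0189 and 0.0203), with mutant values that overlapped with the 36433 wildtypes. All of these 13 genes lost their calls without wildtype replicate 1 (edgeR adjusted p between 0.121 and 0.273 in the least favourable of the 5 fits). Of the 340 calls, 263 stood in no list.

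Lists of connective tissue, notochord, neurons and kidney held between 2.08% and 11.8% called genes, where 1.63% of all genes were called. Of 48 sclerotome and matrix genes 1 fell, the proteoglycan gene vcanb, with 69.8, 87.4 and 31 CPM in mutant tails and 205 and 160 CPM in wildtype tails (log2 fold change -1.55, edgeR adjusted p = 0.0433). Of 34 genes of the notochord and Hedgehog signalling 1 rose, the amino acid transporter gene SLC38A8 (log2 fold change 1.01, edgeR adjusted p = 0.0322). The 3 falls there were CAVIN1, a coat protein of caveolae, MATN3, a cartilage matrix gene, and epyc, a small proteoglycan gene, by 1.94, 3.18 and 2.15 on the log2 scale (edgeR adjusted p = 0.0189, 0.0331 and 0.0428). CAVIN1 had 9.6, 9.33 and 4.18 CPM in mutant tails and 31.6 and 26.6 CPM in wildtype tails. Among 51 neuronal genes 2 fell, PKD2L1, a channel of spinal fluid-contacting neurons, and SLC6A5, the glycine transporter of inhibitory neurons, by 1.29 and 1.4 (edgeR adjusted p = 0.0322 and 0.0447). In the pronephros list of 36, CUBN, an endocytic receptor, fell by 1.12 (edgeR adjusted p = 0.0375). DUSP5, a phosphatase of ERK signalling, was the sole call of 36 stress and immediate early genes, with 15.4, 13.1 and 13.8 CPM in mutant tails and 4.99 and 7.66 CPM in wildtype tails (log2 fold change 1.163, edgeR adjusted p = 0.0324). All of these calls were lost without wildtype replicate 1, and CAVIN1 alone among them was called without mutant replicate 4.

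Several lists held no gene called by edgeR, where 1.63% of all genes were called and 7.92% were higher and 8.91% lower at an unadjusted p under 0.05. In lists of this size, a count of 0 is near that share. None of 48 hox genes was called (1 higher and 0 lower at an unadjusted p under 0.05), none of 47 cell cycle genes (2 and 0) and none of 40 genes of histone and DNA methylation (4 and 0). The medians of these lists were 0.21, 0.03 and 0.16 on the log2 scale. Of 36 epidermal genes and 32 fin fold genes none was called either (2 higher and 7 lower, and 4 higher and 9 lower, at an unadjusted p under 0.05). In the epidermal list, with a median of -0.31, the mutants were below both wildtypes of the line in 21 genes and above both in 4. They were below all 5 wildtypes in 11 and above all 5 in 0. Over all genes, 17.4% were below both and 5.55% below all 5. The fin fold actinodin gene and1 had 18.8, 17.1 and 6.49 CPM in mutant tails and 120 and 69.6 CPM in wildtype tails (edgeR adjusted p = 0.0526), with every mutant below every wildtype. With the replicate block, to which mutant replicate 4 added nothing for want of a same-numbered wildtype, edgeR called and1 and and2 lower (adjusted p = 0.0238 and 0.038). Without 36433 wildtype replicate 1, edgeR called 2 fin fold and 4 epidermal genes lower. The retinoic acid list gave 2 higher and 3 lower of 22 and the neural progenitor list 3 higher and 1 lower of 27 at an unadjusted p under 0.05, again with no gene called. Of the 13 mitochondrially encoded genes none was called, but 10 were lower at an unadjusted p under 0.05 and all 13 had negative log2 fold changes (median -0.6). DESeq2 called no gene of the hox, cell cycle or mitochondrial lists, and at most 3 genes in each of the others here.

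**Figure D5:**
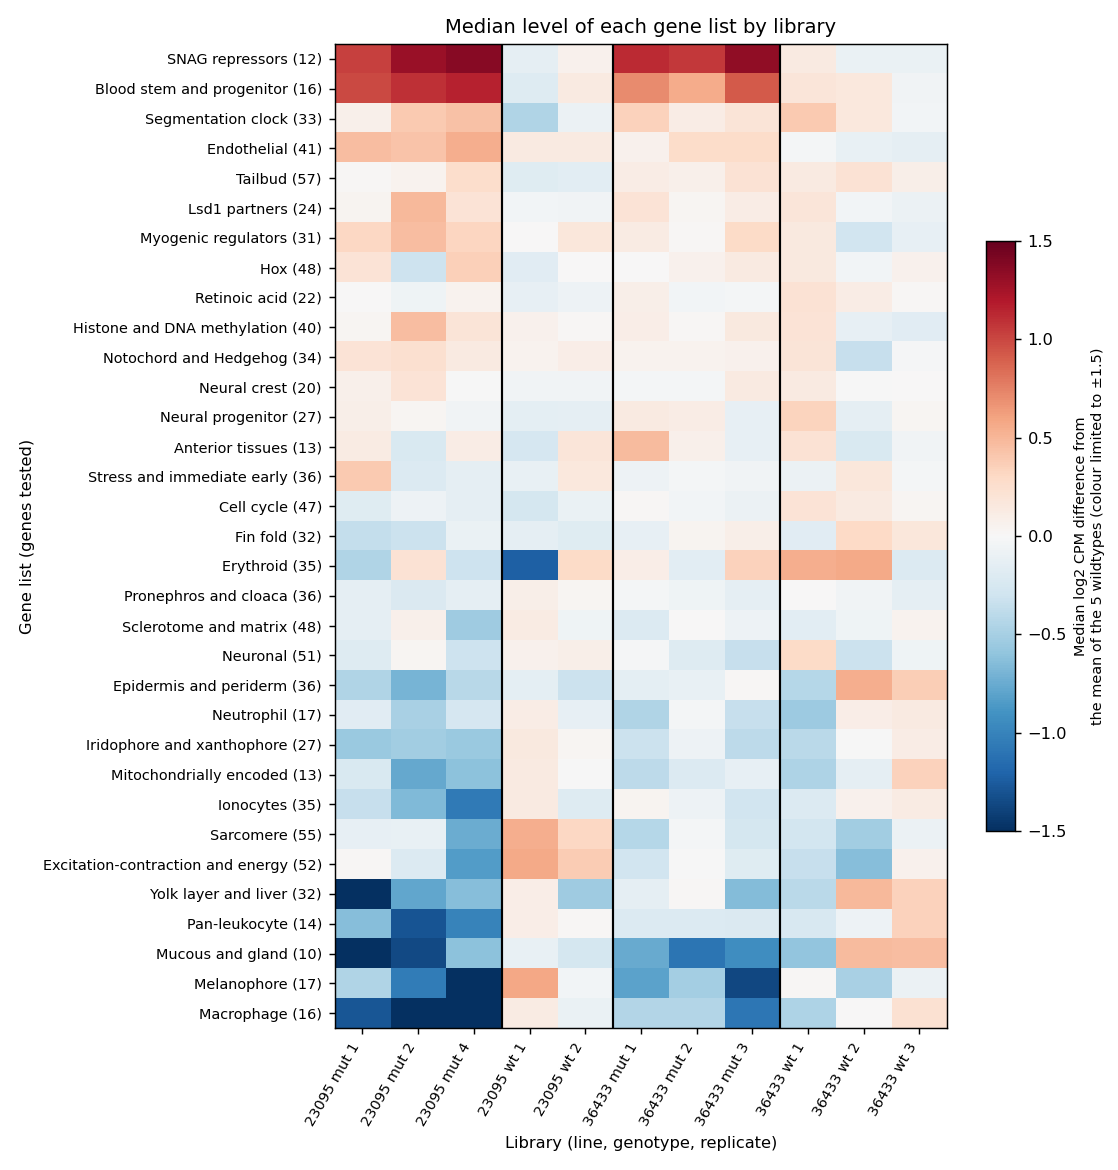
Median log2 CPM difference from the mean of the 5 wildtypes (colour) for each gene list shown (rows, ordered by the median log2 fold change in line 23095, with the number of genes tested) in each library (columns). SNAG and blood stem lists are raised in all 6 mutants, and muscle lists are raised in the 23095 wildtypes and lowest in 23095 mutant replicate 4.

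To see whether any of this was particular to line 23095, the mutant effect was compared with that in line 36433 by the difference of the 2 contrasts in the same model. This difference was called for 2 genes (0.00958% of those tested), KDM1A and actn2b, and neither was called in line 23095. The muscle alpha-actinin gene actn2b had 62.9, 78 and 52.9 CPM in 23095 mutant tails and 67.5 and 55.3 CPM in 23095 wildtype tails (log2 fold change 0.07, edgeR adjusted p = 0.933). In line 36433 it had 3.9, 3.06 and 5.00 CPM in mutant tails and 47, 28.5 and 23.2 CPM in wildtype tails. The difference of the effects was 3.12 on the log2 scale for actn2b (edgeR adjusted p = 0.0286) and 2.2 for KDM1A (edgeR adjusted p = 0.00407). Neither difference was called without 23095 wildtype replicate 1. That of actn2b was also lost without 23095 mutant replicate 2, 23095 wildtype replicate 2, any of the 36433 mutants or 36433 wildtype replicate 2.

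In the edgeR fit of all 11 libraries, no gene called in line 23095 was shown to respond differently from line 36433. DESeq2, also with all 11 libraries, called the difference for 58 genes, which are not named here. With 23095 mutant replicate 1 left out, edgeR called it for c4b (-2.68 on the log2 scale, edgeR adjusted p = 0.024), a gene called lower in line 23095. The same fit called it for nlrc8 (-2.58, edgeR adjusted p = 0.00603), and the fit without 36433 wildtype replicate 3 for bnip4 (-4.68, edgeR adjusted p = 0.000195). For pcdh8, called higher in line 23095, the difference was 2.84 without 23095 wildtype replicate 2, a fit that leaves 1 wildtype of the line. For comparison, edgeR called 35 genes (0.168%) between mutants and wildtypes within line 36433. It called 82 (0.393%) between the 23095 and the 36433 wildtypes, a contrast that shares the 23095 wildtypes with the comparison above. GFI1 had 12.8, 19.95 and 23.75 CPM in 36433 mutant tails and 0.513, 1.345 and 1.47 CPM in 36433 wildtype tails. The median log2 fold change in line 36433 was 1.01 over the SNAG list and 0.59 over the blood stem list, against 1.38 and 1.15 in line 23095. The macrophage and melanophore lists had medians of -0.38 and -0.66 in line 36433, against -2 and -1.7 in line 23095, and the difference of a list's median was not tested.

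The authors' deposited table for this comparison calls 968 genes at an adjusted p under 0.05, 422 higher and 546 lower in the mutants, or 4.69% of the genes tested here that have an adjusted p there. It includes 339 of the 340 genes called here, all with the same sign, which is 99.7% of the calls here and 35% of the calls in that table. Both rest on the same libraries, so the shared signs are no separate evidence. DESeq2 with all 11 libraries gave 972 calls here. For GFI1 the authors' deposited table gives a log2 fold change of 3.63, and since the model behind that table is not described in the labels, its size cannot be set against the 5.56 found here. The authors' deposited table also gives the direction found here for EPX, snai3 and snai1b.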

How the data were processed

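RNA was measured in tails of line 23095 (3 mutant and 2 wildtype pools) and line 36433 (3 and 3). Per the labels' protocols, libraries came from a stranded total RNA kit with ribosomal RNA depletion and were read with 150 bases per end. The authors deposited counts per gene, and the submitters' processing notes name cutadapt 1.16, STAR 2.7.2c, DESeq2 1.22.2 and the build GRCz11. The counter and annotation: not given in the sources used here. Besides counts, the authors deposited log2 fold changes and adjusted p-values of their own comparisons, per the file headers, used only where named.

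From the counts, edgeR 4.0.16 (R 4.3.3, TMM, filterByExpr with a minimum count of 10 and total of 15) fitted 1 quasi-likelihood model of 4 group means to all 11 libraries (7 residual degrees of freedom), and 20886 genes were tested. Genes were called at an adjusted p (Benjamini-Hochberg over all genes) under 0.05. The standard error is the log2 fold change divided by the square root of F. The steps were tested on counts simulated from the means and spreads fitted to these data, without differences between the lines. That simulation cannot show how far the calls depend on single libraries. Levels are CPM with TMM factors, not scaled by gene length, so they are not compared between genes. Total counts set the precision of low genes.

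Genes were named by rule: kdm1a, the 12 rises and 12 falls with the smallest p (mean log2 CPM of at least 1, no overlap of the groups, no clone name), genes called in every fit that left out 1 library of the line, called list members (with those of smallest p where fewer than 4 were called), and genes called for the difference between lines. Other genes named were added outside these rules, some of them picked with their values in view. The comparison, the genes and the lists were chosen with earlier results of these data known. Alternatives were other scalings and filters, DESeq2 1.42.0, the 5 libraries of the line alone, a replicate block and each library left out. Coordinates and sequences were not used here. Results for 1 gene list are not reported here.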

Additional observations from a re-analysis of the deposited data

Results flagged for a closer look

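The mutant effect differed between the lines by the test of the difference itself in 2 genes. For KDM1A the effect in line 23095 exceeded that in line 36433 by 2.2 on the log2 scale (edgeR adjusted p = 0.00407). Its level in line 36433 was 36.85, 34.15 and 34.83 CPM in the mutants, against 161.8, 155.1 and 135.3 CPM in the wildtypes. For actn2b the difference was 3.12 (edgeR adjusted p = 0.0286). With 1 library left out in turn, the call of KDM1A was lost without 23095 wildtype replicate 1 alone.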

How the results depend on the processing

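The 340 calls between 23095 mutants and wildtypes became 972 with DESeq2, 6 with the 5 libraries of the line alone, 33 with the replicate block, and 4 (without 23095 wildtype replicate 1) to 619 (without 36433 wildtype replicate 1) with 1 library left out. The replicate block treated same-numbered libraries of a line as pairs, and whether they were pairs is not known. Deviations of same-numbered libraries from their group means had correlations of -0.0779 and -0.183 in line 23095. With 2 wildtypes these deviations mirror each other, so the correlations cannot decide the question. In line 36433 the correlations were 0.2, 0.0805 and 0.0182. Mutant replicate 4 of line 23095 had no same-numbered wildtype and added nothing to the block estimate. The 77 calls inside gene lists became 168 with DESeq2, 5 with the 5 libraries, 12 with the replicate block, and 4 to 118 with 1 library left out. The 2 calls for the difference between lines became 58 with DESeq2, 1 with the replicate block, and 0 to 4 with 1 library left out. Between the wildtypes of the lines, 21 to 301 genes were called with 1 library left out. The log2 fold change of KDM1A ran between -0.03 and 0.21, and that of actn2b between -0.09 and 0.22, with 1 library left out. The cause was not tested. With library totals alone, 207 genes were higher and 162 lower (56.1% higher, against 42.6% with TMM), and the median of all genes was 0.143, against 0.0187. Size factors, no filter and a filter at 1 CPM gave 339, 338 and 345 calls, and the newer quasi-likelihood method of edgeR, chosen after seeing the data, gave 448. With 2 wildtype libraries, leaving out 1 assumes that the other varies like the rest of the groups. Genes with few reads in the mutants are limited by depth.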
